A study of Mus musculus with 44 samples.

Results

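The genes described here are the nuclear-coded subunits of the respiratory chain and the ATP synthase in mouse peritoneal macrophages. They were taken by name from a table of gene counts: every gene symbol of the Nduf a, b, c, s and v series, of the Uqcr series, Cyc1, Cox4 to Cox8 and Atp5, without names that end in -ps. This gave 81 of 46078 genes, of which 37 were counted under complex I, 10 under complex III, 17 under complex IV and 17 under complex V. Enough counts for a test were found for 74 of them (36, 9, 12 and 17). The names follow families and not structure. Ndufa4 carries a complex I name but is now regarded as a subunit of complex IV. Cox7a2l is known as a factor of the supercomplexes of complexes III and IV. Which form of its protein these cells make, and the supercomplexes themselves, were not examined. Atp5s and Atp5sl carry ATP synthase names, but the first is a coupling factor outside the core enzyme and the second takes part in complex I assembly.

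Complex I passes electrons from NADH to ubiquinone, complex III passes them on to cytochrome c, and complex IV hands them to oxygen. Protons pumped on the way drive complex V, the ATP synthase. Most subunits are coded in the nucleus and imported, while a small set is coded by mitochondrial DNA, so an assembled complex needs both sources. Macrophages activated with lipopolysaccharide (LPS) are known for a shift towards glycolysis, and macrophages activated with interleukin-4 (IL-4) for reliance on mitochondrial respiration.

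The cells were C57BL/6 macrophages drawn to the peritoneum by thioglycolate, collected 4 days after the injection and kept as the cells that adhered after 24 h of culture. They were left untreated (control) or were given 10 µg/mL of an extract of H9c2 cells, a rat heart cell line, 10 ng/mL of IL-4 or 100 ng/mL of LPS, for 8, 24 or 72 h. The series title puts the question of how danger signals released by damaged cells bear on the inflammatory (M1) polarization of macrophages, with LPS and IL-4 as the reference stimuli. Each of the 12 groups held 4 cultures, except that control at 72 h, IL-4 at 72 h and extract at 24 and 72 h held 3. All 44 cultures came from 1 isolate pooled from several mice, so every p-value measures the spread between cultures of 1 isolate and not between animals. Thioglycolate-elicited cells are recruited cells, and no resident or untreated animal was compared.

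Polyadenylated RNA was sequenced, and 908458 to 26616968 reads per library were counted to genes. The subunit genes took 0.737 to 2.44% of these counts (median 1.06%). Levels are given as counts per 1000000 gene counts (CPM) after library scaling, and changes as log2 ratios with their standard error (SE) from 1 edgeR quasi-likelihood fit over all 14537 genes with enough counts. A gene "rose" or "fell" where the Benjamini-Hochberg adjusted p was under 0.05. All 8 macrophage markers were measured, with a summed level of 8200 to 31036 CPM. The sum was 26939 to 31036 CPM with the extract at 72 h, above the 10294 to 18067 CPM of the 72 h controls, and 5 of the 8 rose. Of the 6 neutrophil markers, Ly6g, Retnlg, Mpo, Elane and S100a9 were at 0 to at most 2.68 CPM in every library. The sixth, S100a8, made up nearly all of the list's sum, which was 293 to 517 CPM with LPS and 39.9 to 57.3 CPM in controls at 72 h, and 124 to 169.7 CPM with the extract and 18.8 to 34.2 CPM in controls at 24 h. The part of these markers in the subunit differences was not tested. In 5 libraries fewer than 2000000 reads were counted (IL-4 8 h replicates 2 and 3, IL-4 24 h replicate 1, control 72 h replicate 4 and LPS 72 h replicate 1), and in 7 libraries, all numbered replicate 3, over 3% of the counts lay in the ribosomal RNA gene Rn18s-rs5. Per kilobase of transcript and averaged over libraries, the most abundant subunit messages were Atp5e (626 CPM), Atp5k (615), Cox8a (614), Uqcrq (574) and Cox7a2 (556), all of small subunits. In control 8 h replicate 1 the LPS-responsive gene AA467197 stood at 98.5 CPM, against 25.2 to 38.9 CPM in the other 3 control libraries of that time. The 72 h controls held more RNA of other cells: the fibroblast and smooth muscle markers summed to 559.6 to 1152 CPM there, against 92.8 to 292 CPM in the stimulated 72 h libraries, and all 7 tested markers fell with each stimulus. The mesothelial markers summed to 83.5 to 128 CPM in the 72 h controls and to 7.56 to 45.2 CPM in the stimulated libraries. The part of these cells in the 72 h differences was not tested. In bulk RNA, fewer cells of a type and less RNA per cell cannot be told apart.

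Promoters of 63 of the 81 genes were found in the RefSeq table (build GRCm38.p6), as 300-base windows from 250 bases before to 50 bases after the transcription start. Motifs of factors known to drive respiratory genes were searched on both strands. The palindromic core site of nuclear respiratory factor 1 (NRF1), with 1 base left free, was found in 14 of the 63 windows (22.2%) and in 4.6% of all 32851 windows of the table. CCGGAAG, a core of the ETS family to which GABP belongs, was found in 13 (20.6%, against 8.86%), and AAGATGGCG, a YY1 site, in 6 (9.52%, against 1.4%). The ETS motif ends in the 3 letters with which the YY1 motif begins, so 1 stretch can hold both. The part before the gene is shown for 4 genes that the results below turn on, in lower case with motif matches in capitals. The RefSeq start lies inside the gene as GENCODE M21 bounds it, so the last 23, 1, 164 and 47 of the 250 bases before it are left out for Cox6a1, Uqcrh, Ndufs4 and Ndufa4. Cox6a1 (chr5:115348982-115349208, minus strand), the ubiquitous isoform partner of Cox6a2, held 2 NRF1 matches in the stretch shown and 1 ETS match in the part left out. Uqcrh (chr4:116075072-116075320, minus strand) held 1 ETS match at the end of the stretch. Ndufs4 (chr13:114388259-114388344, minus strand) held no match in this stretch and 1 YY1 match after the RefSeq start, and Ndufa4 (chr6:11907498-11907700, minus strand) held none. Cox6a2 had no entry in the table.
Cox6a1: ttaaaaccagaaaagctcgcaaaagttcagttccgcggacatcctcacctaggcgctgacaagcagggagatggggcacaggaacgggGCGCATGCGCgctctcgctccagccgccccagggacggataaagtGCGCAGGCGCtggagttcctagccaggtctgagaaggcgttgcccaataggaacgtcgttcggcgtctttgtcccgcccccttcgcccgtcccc
Uqcrh: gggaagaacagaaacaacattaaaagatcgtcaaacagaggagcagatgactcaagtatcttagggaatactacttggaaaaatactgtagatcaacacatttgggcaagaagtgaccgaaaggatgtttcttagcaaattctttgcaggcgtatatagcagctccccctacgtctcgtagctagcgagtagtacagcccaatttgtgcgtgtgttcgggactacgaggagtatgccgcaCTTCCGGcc
Ndufs4: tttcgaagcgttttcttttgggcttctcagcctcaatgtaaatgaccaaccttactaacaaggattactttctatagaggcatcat
Ndufa4: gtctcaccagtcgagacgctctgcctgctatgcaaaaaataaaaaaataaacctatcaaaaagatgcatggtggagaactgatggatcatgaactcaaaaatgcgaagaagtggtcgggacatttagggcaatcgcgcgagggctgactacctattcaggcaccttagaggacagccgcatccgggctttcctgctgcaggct
A match describes letters in a window, and binding was not measured.

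Few subunits passed the test with LPS at any time. IL-4 was followed by higher levels at 24 h, in all 4 complexes, and by a mixed picture at 72 h. The extract was followed by little change at 8 and 24 h and by lower levels at 72 h. With LPS, 4 of 74 subunits rose and 4 fell at 8 h, when 45.3% of all genes tested were called (21.3% higher and 24.1% lower). At 24 h with LPS 11 rose and 2 fell, when 37.7% of all genes were called (18.5% higher and 19.2% lower), and at 72 h 7 rose and 4 fell, when 31.4% were (16.1% and 15.3%), or 4 and 4 with RLE scaling. These are 10.8%, 17.6% and 14.9% of the subunits, each below the share among all genes. With IL-4, 2 rose and 0 fell at 8 h, when 8.24% of all genes were called (4.26% higher and 3.98% lower). At 24 h with IL-4 23 rose and 0 fell, when 9.28% were called (4.6% and 4.68%), and at 72 h 6 rose and 8 fell, when 23.5% were (13.1% and 10.4%). The 72 h balance turned with a trend on transcript length removed, to 11 that rose and 6 that fell, and was 3 and 12 with RLE scaling. The 24 h count, 31.1% of the subunits, stood above the share of all genes called higher in the reported fit. This excess rested largely on 1 shallow library: without IL-4 24 h replicate 1, 7 of the 74 subunits were called. Of the 23 calls, 1 was kept under every alternative run. With the extract, 1 rose and 1 fell at 8 h, when 30% of all genes were called (13% higher and 17% lower), and 2 rose and 2 fell with the replicate number as a block. At 24 h with the extract 3 rose and 2 fell, when 22% were called (11.6% and 10.3%), and at 72 h 1 rose and 19 fell, when 26.2% were (14.1% and 12.1%). The median log2 change over the 74 subunits was 0.59 with IL-4 at 24 h, with 71 values above 0, and -0.46 with the extract at 72 h, with 57 values below 0. The medians of all genes were -0.03 and 0.00. Without libraries under 2000000 counts, which here takes out IL-4 24 h replicate 1 and control 72 h replicate 4, the subunit medians were 0.24 and -0.25. For the other comparisons with control the subunit median lay between -0.31 (IL-4 at 72 h) and 0.25 (IL-4 at 8 h).

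**Figure D1:**
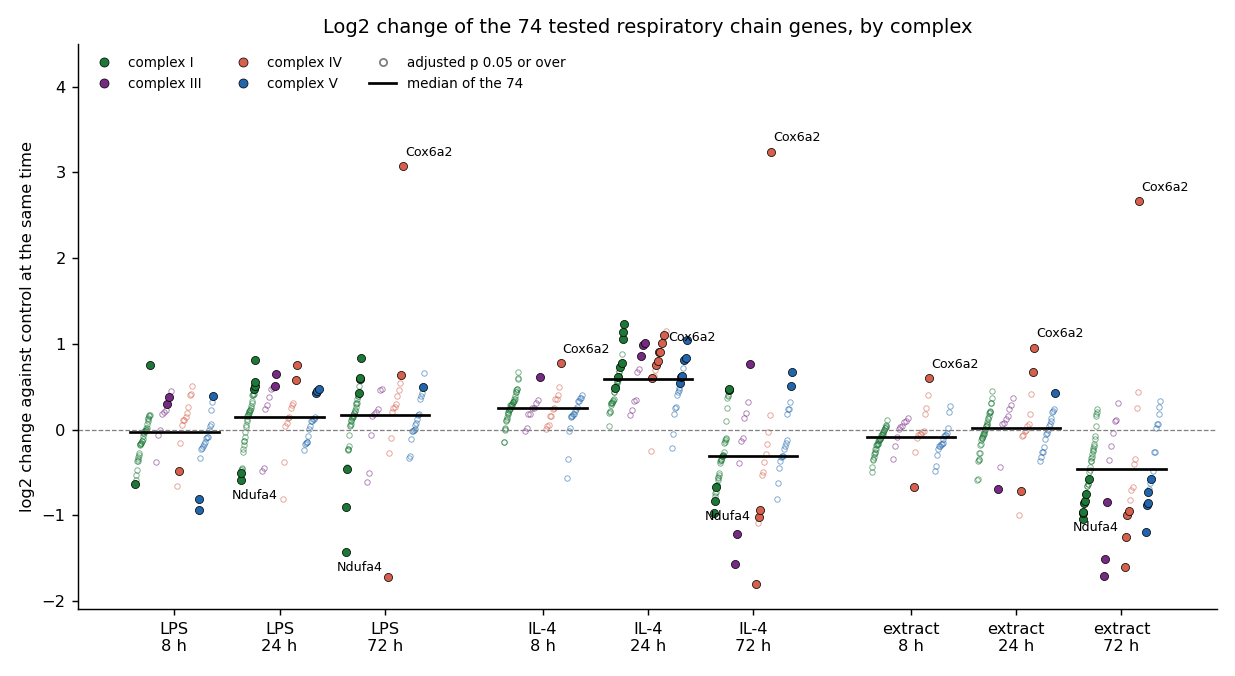
Log2 change of each of the 74 tested subunits against the control of the same time, 1 point per gene, in panels for LPS, IL-4 and extract at 8, 24 and 72 h and grouped by complex; filled points have an adjusted p under 0.05 and bars mark the median. The IL-4 24 h points lie mostly above 0, the extract 72 h points mostly below 0, and Cox6a2 stands apart at 72 h with all 3 stimuli.

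The strength of the 2 broad patterns differed between libraries. Among the IL-4 24 h cultures, replicate 1 (908458 counts) had complex I, III, IV and V sums of 8251, 2944, 6584 and 6403 CPM, against 3269 to 3592, 1293 to 1446, 2214 to 2662 and 3517 to 3787 CPM in the other 3. Its ribosomal protein genes, also short and abundant, summed to 80998 CPM. Without this library 7 subunits were called with IL-4 at 24 h, and 5 of the 23 kept their call: Atp5b, Cyc1, Ndufs8, Ndufv2 and Cox6a2. Without control 24 h replicate 1 the count was 8, without control 24 h replicate 2 it was 12, and without IL-4 24 h replicate 3 or 4 it was 37 or 36. For the extract at 72 h, 9 were called without control 72 h replicate 4 and 8 without extract 72 h replicate 2. The same 8 of the 20 genes kept their call in each: Uqcrh, Uqcr11, Cox6b1, Cox7b, Ndufa3, Ndufa4, Atp5g1 and Cox6a2. For LPS, 8 were called at 24 h without control replicate 1 or 2, and at 72 h 7 without control replicate 1 and 6 without LPS replicate 4. For IL-4 at 8 h the count lay between 0 and 5 with each of control replicates 1 to 3 or any IL-4 replicate left out, for the extract at 8 h it was 1 without control replicate 1 or 2, and for the extract at 24 h it was 3 without extract replicate 2 or 3. The plot of sums by library shows the IL-4 24 h library apart from its group in each complex.

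**Figure D2:**
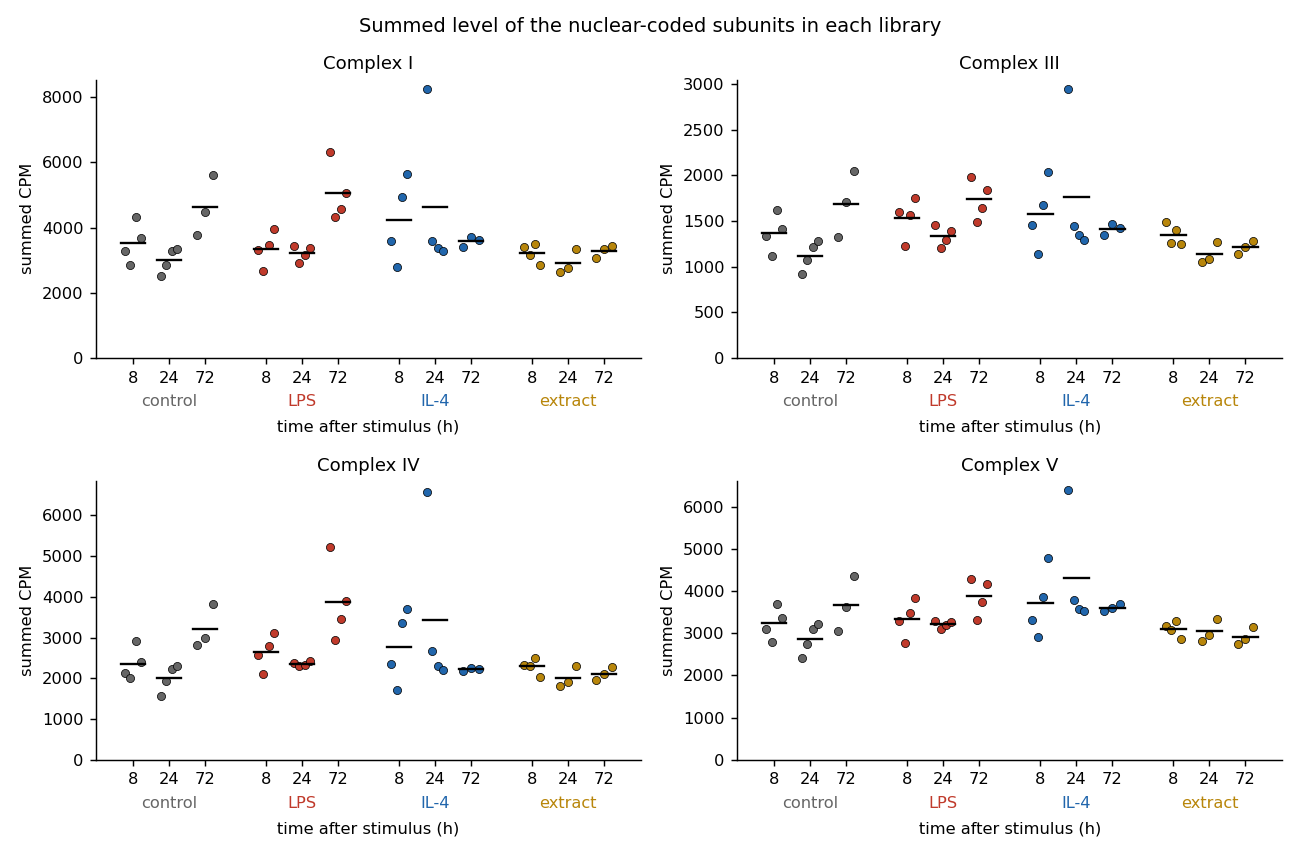
Summed level of the subunit genes of complexes I, III, IV and V (CPM, 1 point per library, bar at the group mean) for control, LPS, IL-4 and extract at 8, 24 and 72 h. In each panel 1 IL-4 24 h library lies far above the other 3 (for complex IV 6584 CPM against 2214 to 2662), and the IL-4 and extract 72 h libraries lie close together.

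Among the genes counted under complex I, the accessory subunit Ndufs4 rose with LPS at every time, and Ndufa4 fell with LPS at 24 and 72 h in the reported fit. Ndufs4, which supports assembly of the NADH-binding arm, stood at 90.8, 82.9, 126 and 105 CPM in the 8 h controls and at 173, 139, 167 and 203 CPM with LPS. The groups did not overlap (log2 change 0.76 ± 0.20 SE, adjusted p = 0.00135). At 24 h it was at 60.8, 79.0, 89.8 and 90.6 CPM in controls and 142, 128, 136 and 158 CPM with LPS (log2 change 0.81 ± 0.20 SE, adjusted p = 0.000806), again without overlap. At 72 h it was at 126, 119 and 142 CPM and 265, 159, 163 and 201 CPM (log2 change 0.59 ± 0.22 SE, adjusted p = 0.0318). The 72 h call was lost without control replicate 1 or 3 or LPS replicate 1 or 4 (log2 change 0.38 to 0.58, adjusted p = 0.0795 to 0.176) and with RLE scaling (adjusted p = 0.0569). In the reported fit it passed the test with LPS at all 3 times and with neither IL-4 nor the extract at any time. With the extract at 24 h it had log2 change 0.37, adjusted p = 0.239. Without libraries under 2000000 counts it was called there (log2 change 0.42, adjusted p = 0.0219). The direct comparison put the extract below LPS at 8 h (log2 change -0.65 ± 0.20 SE, adjusted p = 0.00901) and at 72 h (log2 change -0.78 ± 0.22 SE, adjusted p = 0.00673), and LPS above IL-4 at 8 h (log2 change 0.57 ± 0.20 SE, adjusted p = 0.0172) and 72 h (log2 change 0.89 ± 0.21 SE, adjusted p = 0.000918). At 24 h neither passed the test: the extract against LPS gave log2 change -0.44 ± 0.21 SE, adjusted p = 0.166, and LPS against IL-4 gave log2 change 0.25 ± 0.20 SE, adjusted p = 0.352. Without IL-4 24 h replicate 1 the last was 0.63 (adjusted p = 0.00224), and without LPS 72 h replicate 1 the extract no longer differed from LPS by the test at 72 h (log2 change -0.54, adjusted p = 0.0656). The 8 h differences were lost without LPS 8 h replicate 4 (adjusted p = 0.0690 against IL-4 and 0.0828 for the extract), and that between LPS and IL-4 also without IL-4 8 h replicate 1 or 2. That between the extract and LPS was also lost without the libraries rich in ribosomal RNA (adjusted p = 0.0586).

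Ndufa4 (chr6:11900292-11907497, minus strand, GRCm38) was at 164, 152, 235 and 188 CPM in the 8 h controls and 172, 151, 189.6 and 222 CPM with LPS, which overlapped. At 24 h it was at 129.7, 98.3, 176 and 167 CPM in controls and 97.3, 70.6, 101 and 111 CPM with LPS (log2 change -0.59 ± 0.22 SE, adjusted p = 0.0338). These groups overlapped. The 24 h call was lost without control replicate 3 or 4 or LPS replicate 1 or 2 (adjusted p = 0.0545 to 0.133). It was also lost without the libraries rich in ribosomal RNA (adjusted p = 0.205). At 72 h the controls had 171, 279 and 323 CPM and the LPS cultures 70.4, 103, 97.2 and 105 CPM, all 4 of them below every control, a fall by 2.7-fold (log2 change -1.43 ± 0.24 SE, adjusted p = 7.42e-06). With IL-4 at 72 h it was at 145, 127 and 160.1 CPM (log2 change -0.83 ± 0.26 SE, adjusted p = 0.0165) and with the extract at 123, 126 and 143 CPM (log2 change -0.97 ± 0.26 SE, adjusted p = 0.00479), so it fell with each stimulus at that time. LPS was below IL-4 at 24 h (log2 change -0.92 ± 0.23 SE, adjusted p = 0.00108) and at 72 h (log2 change -0.60 ± 0.24 SE, adjusted p = 0.0455). The 72 h difference was lost with RLE scaling (adjusted p = 0.0831). It was also lost without IL-4 replicate 2 or 4 or LPS replicate 1 or 2 (adjusted p = 0.0573 to 0.149). The paralog that can take the place of Ndufa4 in complex IV is AA467197 in mouse (human C15orf48). It lies outside the name rule and was added after its values were seen. It stood at 29.5 to 41.2 CPM in the 72 h controls, 2330.2 to 3590.3 CPM with LPS, 117 to 239.6 CPM with IL-4 and 260.4 to 300.2 CPM with the extract. Its 72 h log2 change was 6.32 ± 0.47 SE, adjusted p = 1.12e-13 with LPS, 2.14 ± 0.41 SE, adjusted p = 0.000145 with IL-4 and 2.93 ± 0.42 SE, adjusted p = 1.1e-06 with the extract. With LPS it was already at 1872 to 3193 CPM at 8 h, when Ndufa4 did not pass the test (adjusted p = 0.984). Ndufa4l2, a second relative of Ndufa4, had 8 counts over all libraries and was not tested.

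The core subunits of complex I, which carry the flavin and the iron-sulfur clusters, did not move in 1 direction. Ndufs1, the largest of them, was at 64.9, 66.8 and 78.7 CPM in 72 h controls and 46.3, 50.6, 55.7 and 48.8 CPM with LPS, below every control (log2 change -0.46 ± 0.14 SE, adjusted p = 0.0102). It had log2 change 0.25 ± 0.15 SE, adjusted p = 0.231 with IL-4 and log2 change -0.08 ± 0.15 SE, adjusted p = 0.765 with the extract at that time. Ndufv1, which binds NADH, was at 35.2, 50.1 and 49.2 CPM in 72 h controls and at 60.1, 64.2 and 60.8 CPM with IL-4 (log2 change 0.47 ± 0.17 SE, adjusted p = 0.0409), without overlap. Ndufs3, another core subunit, was at 26.7, 35.1, 36.5 and 37.2 CPM in 24 h controls and 48.7, 46.6, 52.3 and 53.3 CPM with LPS, higher in all 4 (log2 change 0.56 ± 0.15 SE, adjusted p = 0.00316). Ndufs8, another iron-sulfur subunit, was at 28.9, 52.3, 48.2 and 47.3 CPM in 24 h controls and at 225, 64.3, 63.6 and 71.3 CPM with IL-4, where replicate 1 stood far above the others (log2 change 1.14 ± 0.26 SE, adjusted p = 0.00225). At 72 h it fell with LPS (log2 change -0.90 ± 0.28 SE, adjusted p = 0.0129) and with the extract (log2 change -0.96 ± 0.30 SE, adjusted p = 0.0149). Ndufv2, the partner of Ndufv1, rose with IL-4 at 24 h (log2 change 0.73 ± 0.18 SE, adjusted p = 0.00524).

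Accessory subunits made up the rest of the complex I calls. Ndufb3 was at 72.9, 99.2 and 121 CPM in 72 h controls and 157, 197, 146 and 186 CPM with LPS, without overlap (log2 change 0.83 ± 0.25 SE, adjusted p = 0.00821), and Ndufc2 rose beside it (log2 change 0.61 ± 0.22 SE, adjusted p = 0.0297). With LPS, Ndufb10 was lower at 8 h (log2 change -0.64 ± 0.22 SE, adjusted p = 0.013) and Ndufb11 at 24 h (log2 change -0.51 ± 0.21 SE, adjusted p = 0.0484). The Ndufb10 call was lost without control 8 h replicate 3 (adjusted p = 0.0594) and without the libraries rich in ribosomal RNA (0.0955). The Ndufb11 call was lost with any single library of the groups left out (adjusted p = 0.0579 to 0.106). It was also lost with RLE scaling (0.0698) and without the libraries rich in ribosomal RNA (0.185). Ndufa3 was at 229, 229 and 283 CPM in 72 h controls, at 119, 132 and 125 CPM with IL-4 (log2 change -0.98 ± 0.29 SE, adjusted p = 0.0106) and at 114, 115 and 129.6 CPM with the extract (log2 change -1.04 ± 0.29 SE, adjusted p = 0.00583). Neither of these groups overlapped the controls. The 7 complex I genes that fell with the extract at 72 h were Ndufa1, Ndufa3, Ndufa4, Ndufa8, Ndufb10, Ndufs6 and Ndufs8. No complex I gene passed the test with IL-4 at 8 h, where Ndufa12 had the smallest p (log2 change 0.60 ± 0.25 SE, adjusted p = 0.143), or with the extract at 8 h (Ndufb10, log2 change -0.43 ± 0.21 SE, adjusted p = 0.131) or 24 h (Ndufb11, log2 change -0.58 ± 0.22 SE, adjusted p = 0.0569). With IL-4 at 24 h, 7 complex I genes rose (median of the 36 genes 0.53).

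In complex III the small hinge subunit Uqcrh and the small subunit Uqcr11 showed the largest falls of the complex, both at 72 h and with IL-4 and the extract. Uqcrh (chr4:116066965-116075071, minus strand), which binds near cytochrome c1, was at 246, 314 and 412 CPM in 72 h controls. With IL-4 it was at 101, 115 and 111 CPM, lower by 2.97-fold (log2 change -1.57 ± 0.23 SE, adjusted p = 2.41e-06). With the extract it was at 90.9, 95.3 and 111 CPM, lower by 3.27-fold (log2 change -1.71 ± 0.24 SE, adjusted p = 3.9e-07). Neither group came near the lowest control. With LPS it was at 263, 197, 217 and 233 CPM, which overlapped the controls (log2 change -0.51 ± 0.21 SE, adjusted p = 0.0651). With the extract it was already lower at 24 h, at 100.0, 110.4 and 134 CPM against 143, 186, 205 and 210.5 CPM (log2 change -0.70 ± 0.22 SE, adjusted p = 0.0151). This 24 h call was lost without extract replicate 2 or 3 (adjusted p = 0.0939 and 0.0618) and without the libraries rich in ribosomal RNA (0.0872). Uqcr11 was at 151, 206 and 240.3 CPM in 72 h controls, 79.0, 85.1 and 91.7 CPM with IL-4 (log2 change -1.22 ± 0.33 SE, adjusted p = 0.00625) and 61.4, 71.3 and 76.4 CPM with the extract (log2 change -1.51 ± 0.34 SE, adjusted p = 0.000758), without overlap.

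The calls against control among the catalytic and core proteins of complex III were rises, but mostly with LPS or at earlier times. At 72 h the only rise in the complex was that of Uqcrc1 with IL-4. With the extract at 72 h 0 complex III genes rose and 3 fell. Cyc1, cytochrome c1, was at 63.2, 76.5, 74.9 and 78.5 CPM in 24 h controls and at 124, 117, 107 and 113 CPM with LPS, higher in every culture (log2 change 0.65 ± 0.16 SE, adjusted p = 0.00127). With IL-4 at 24 h it was at 218, 116, 104 and 112 CPM (log2 change 0.86 ± 0.17 SE, adjusted p = 0.000259), and the 3 libraries other than replicate 1 also lay above every control. Uqcrc2, a core protein of the matrix side, was at 93.6, 122, 128 and 120.3 CPM in 24 h controls and 159, 172, 163 and 168 CPM with LPS (log2 change 0.51 ± 0.12 SE, adjusted p = 0.000861), without overlap, and was also higher at 8 h (log2 change 0.29 ± 0.12 SE, adjusted p = 0.0494). The 8 h call was lost without control replicate 1, 2 or 4 or any 1 LPS replicate (adjusted p = 0.0702 to 0.148). Uqcrfs1, the Rieske iron-sulfur protein, was at 117, 112, 122 and 134 CPM in 8 h controls and at 159, 119, 159.9 and 192 CPM with LPS, 1 of them inside the control range (log2 change 0.38 ± 0.13 SE, adjusted p = 0.0133). Uqcrc1, the other core protein, fell in the controls from 102, 83.8, 63.3 and 94.1 CPM at 8 h to 34.6, 59.7 and 53.5 CPM at 72 h (log2 change -0.82 ± 0.20 SE, adjusted p = 0.00555). With IL-4 it was at 137, 144, 123 and 121 CPM at 8 h (log2 change 0.61 ± 0.18 SE, adjusted p = 0.0233) and at 82.0, 86.0 and 80.1 CPM at 72 h (log2 change 0.76 ± 0.21 SE, adjusted p = 0.00752), above the controls of each time. The fall of Uqcrc1 in controls was lost without control 72 h replicate 1 (log2 change -0.60, adjusted p = 0.104). Its 8 h call with IL-4 was lost without control replicate 2 or 3 or IL-4 replicate 1 or 2 (adjusted p = 0.0517 to 0.108). It was also lost without the libraries rich in ribosomal RNA (0.154) and with only the groups compared (0.0625). Uqcr10, a small subunit, rose with IL-4 at 24 h (log2 change 0.99 ± 0.23 SE, adjusted p = 0.00321) and fell with the extract at 72 h (log2 change -0.85 ± 0.27 SE, adjusted p = 0.0152). With the extract at 8 h no complex III gene was called, and Uqcrh had the smallest p (log2 change -0.35 ± 0.20 SE, adjusted p = 0.211).

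Complex IV held the largest fitted change among the 74 subunits in the comparisons with control. Cox6a2 (chr7:128205435-128206387, minus strand), the isoform of subunit VIa that is typical of heart and skeletal muscle, was at 2.12, 1.78 and 5.35 CPM in the 72 h controls. It was at 24.1, 24.6, 23.3 and 21.5 CPM with LPS, 26.3, 23.7 and 28.5 CPM with IL-4 and 16.5, 13.5 and 21.7 CPM with the extract. Every stimulated culture lay above every control, and the rise was 8.43-fold with LPS (log2 change 3.08 ± 0.32 SE, adjusted p = 1.24e-10), 9.47-fold with IL-4 (log2 change 3.24 ± 0.32 SE, adjusted p = 2.27e-10) and 6.35-fold with the extract (log2 change 2.67 ± 0.33 SE, adjusted p = 2.85e-08). These 3 comparisons share their control libraries. The direct comparisons at 72 h did not pass the test: LPS against IL-4 gave log2 change -0.17 ± 0.22 SE, adjusted p = 0.556, and the extract against LPS gave log2 change -0.41 ± 0.23 SE, adjusted p = 0.199.

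The earlier times differed by stimulus. At 8 h Cox6a2 was at 5.73, 4.81, 7.03 and 6.50 CPM in controls, 4.02, 4.40, 6.50 and 5.98 CPM with LPS, 8.29, 7.06, 10.6 and 14.6 CPM with IL-4 and 11.8, 8.02, 9.46 and 6.71 CPM with the extract. LPS overlapped the controls (log2 change -0.15 ± 0.24 SE, adjusted p = 0.642), while IL-4 (log2 change 0.77 ± 0.24 SE, adjusted p = 0.0362) and the extract (log2 change 0.60 ± 0.22 SE, adjusted p = 0.0352, 1 culture inside the control range) were higher. At 24 h it was at 2.72, 4.60, 3.72 and 4.16 CPM in controls, 4.20, 3.80, 4.06 and 6.92 CPM with LPS, 13.1, 7.80, 6.12 and 6.28 CPM with IL-4 and 7.14, 6.82 and 8.82 CPM with the extract. Again LPS did not pass the test (log2 change 0.29 ± 0.24 SE, adjusted p = 0.386), and IL-4 (log2 change 0.91 ± 0.24 SE, adjusted p = 0.0102) and the extract (log2 change 0.96 ± 0.24 SE, adjusted p = 0.00237) did. LPS was below IL-4 at 8 h (log2 change -0.92 ± 0.26 SE, adjusted p = 0.00272) and 24 h (log2 change -0.62 ± 0.24 SE, adjusted p = 0.0361), and the extract above LPS at 8 h (log2 change 0.75 ± 0.24 SE, adjusted p = 0.0125) and 24 h (log2 change 0.67 ± 0.24 SE, adjusted p = 0.0462). These calls rest on few cultures. At 8 h the adjusted p rose to 0.313 for IL-4 without IL-4 replicate 4 and to 0.182 for the extract without extract replicate 1, and the difference between LPS and IL-4 at 24 h had an adjusted p of 0.0702 to 0.133 without IL-4 replicate 1 or 2 or LPS replicate 1, 2 or 3. The difference between the extract and LPS at 8 h had an adjusted p of 0.0771 without extract replicate 1. Untreated cells had less at 72 h than at 8 h (log2 change -1.10 ± 0.33 SE, adjusted p = 0.0238), with 1 of the 3 values inside the 8 h range. The change of the stimulus effect from 8 to 72 h was log2 change 3.23 ± 0.40 SE, adjusted p = 2.43e-08 for LPS, log2 change 2.47 ± 0.41 SE, adjusted p = 3.69e-05 for IL-4 and log2 change 2.07 ± 0.40 SE, adjusted p = 0.000161 for the extract.

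Several measurements bear on these Cox6a2 reads. The last exon of Itgad, an integrin gene on the opposite strand, overlaps Cox6a2 by 70 bases (chr7:128205435-128205504), and the strand setting of the counting is not given in the sources used here. Itgad itself was at 0 to 1.03 CPM in every library. Of 8 muscle markers, 7 were in the table and 2 had enough counts for a test, Des and Tnni3. The summed level of the list was 16.7 to 22.5 CPM in 72 h controls, 2.33 to 4.58 CPM with LPS, 1.61 to 2.65 CPM with IL-4 and 1.96 to 3.21 CPM with the extract. Most of this was Des, the muscle intermediate filament protein desmin, which fell with LPS (log2 change -4.05 ± 0.33 SE, adjusted p = 1.39e-13), IL-4 (log2 change -3.61 ± 0.31 SE, adjusted p = 5.16e-12) and the extract (log2 change -3.36 ± 0.32 SE, adjusted p = 7.85e-11). The ventricular light chain Myl2 was at 0 in all control, IL-4 and extract libraries at 72 h. At 72 h the sum was lower in every stimulated library than in any control. At 8 h it was 7.57 to 9.32 CPM with IL-4 and 3.67 to 5.10 CPM with the extract, against 5.12 to 6.78 CPM in controls. Its part in the Cox6a2 values was not tested.

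Set against its ubiquitous partner, Cox6a2 stayed the minor isoform at every time. Per kilobase of transcript, Cox6a1 was at 594 ± 139 CPM (SD, n = 3) in 72 h controls, 719 ± 262 (SD, n = 4) with LPS, 419 ± 16.3 (SD, n = 3) with IL-4 and 364 ± 38.0 (SD, n = 3) with the extract. On the same scale Cox6a2 was at 4.53 ± 2.90 CPM (SD, n = 3), 34.4 ± 1.96 (SD, n = 4), 38.5 ± 3.52 (SD, n = 3) and 25.3 ± 6.06 (SD, n = 3). Cox6a1 passed the test at none of these (adjusted p = 0.595, 0.305 and 0.134). At 24 h with IL-4 it rose (log2 change 1.10 ± 0.30 SE, adjusted p = 0.0144), with groups that overlapped.

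The other muscle isoform moved in the opposite direction at 72 h. Cox7a1 was at 4.45, 3.56 and 5.89 CPM in controls, 2.89, 0.654, 2.20 and 1.05 CPM with LPS, 1.36, 0.979 and 1.53 CPM with IL-4 and 0.963, 3.38 and 1.12 CPM with the extract. No stimulated library reached the lowest control. The log2 change was -1.72 ± 0.57 SE, adjusted p = 0.0167 with LPS, -1.81 ± 0.55 SE, adjusted p = 0.014 with IL-4 and -1.60 ± 0.59 SE, adjusted p = 0.0392 with the extract, at levels of a few CPM. The extract call was lost without control replicate 1 or 4 or extract replicate 2 or 4 (adjusted p = 0.0793 to 0.198). It was also lost without libraries under 2000000 counts (0.0740) and with the length trend removed (0.0660). With no count filter (0.0626) or only the groups compared (0.0559) Cox7a1 was not called either. LPS was below IL-4 at 24 h (log2 change -1.96 ± 0.50 SE, adjusted p = 0.00157). Its ubiquitous partner Cox7a2 was at 416, 369 and 482 CPM in 72 h controls, 226, 210.4 and 222 CPM with IL-4 (log2 change -0.94 ± 0.30 SE, adjusted p = 0.0206) and 189, 213 and 230.4 CPM with the extract (log2 change -1.003 ± 0.30 SE, adjusted p = 0.0123), all below the controls. With LPS it was at 880.0, 393, 497 and 557 CPM, inside or above the control range (adjusted p = 0.241). At 24 h Cox7a2 rose with LPS (log2 change 0.75 ± 0.26 SE, adjusted p = 0.0208) and with IL-4 (log2 change 1.01 ± 0.26 SE, adjusted p = 0.00899). Of the remaining isoforms, Cox4i2 (7 counts over all libraries), Cox8b (2), Cox7b2 (41), Cox6b2 (89) and Cox8c (0) were too low for a test, and Cox4i1 is not analysed here.

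The RNA of Cox7a2l, known as a supercomplex factor, fell first and rose later with LPS. At 8 h it was at 302, 274, 358 and 343 CPM in controls, 233, 186, 225 and 272 CPM with LPS and 203, 217, 205 and 179 CPM with the extract. All LPS and extract values lay below the lowest control (log2 change -0.48 ± 0.16 SE, adjusted p = 0.0124 with LPS and -0.67 ± 0.16 SE, adjusted p = 0.00104 with the extract). At 24 h it was at 281, 285, 300.1 and 307 CPM in controls, 239.7, 203, 219.6 and 237 CPM with LPS (log2 change -0.38 ± 0.16 SE, adjusted p = 0.0538, and 0.0432 with the replicate number as a block) and 179, 169 and 187 CPM with the extract (log2 change -0.72 ± 0.17 SE, adjusted p = 0.00158). At 72 h the controls had 325, 316 and 376 CPM and the LPS cultures 559, 520.5, 487 and 547 CPM, all above the controls (log2 change 0.64 ± 0.18 SE, adjusted p = 0.00376). The extract cultures had 392, 398 and 422 CPM at that time (log2 change 0.25 ± 0.18 SE, adjusted p = 0.337), and the IL-4 cultures 282, 262 and 288 CPM (log2 change -0.29 ± 0.18 SE, adjusted p = 0.262). The effect at 72 h exceeded that at 8 h by log2 change 1.12 ± 0.24 SE, adjusted p = 0.000268 for LPS and by log2 change 0.92 ± 0.24 SE, adjusted p = 0.00515 for the extract. The plot of levels by library for these genes shows the separation of the groups.

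**Figure D3:**
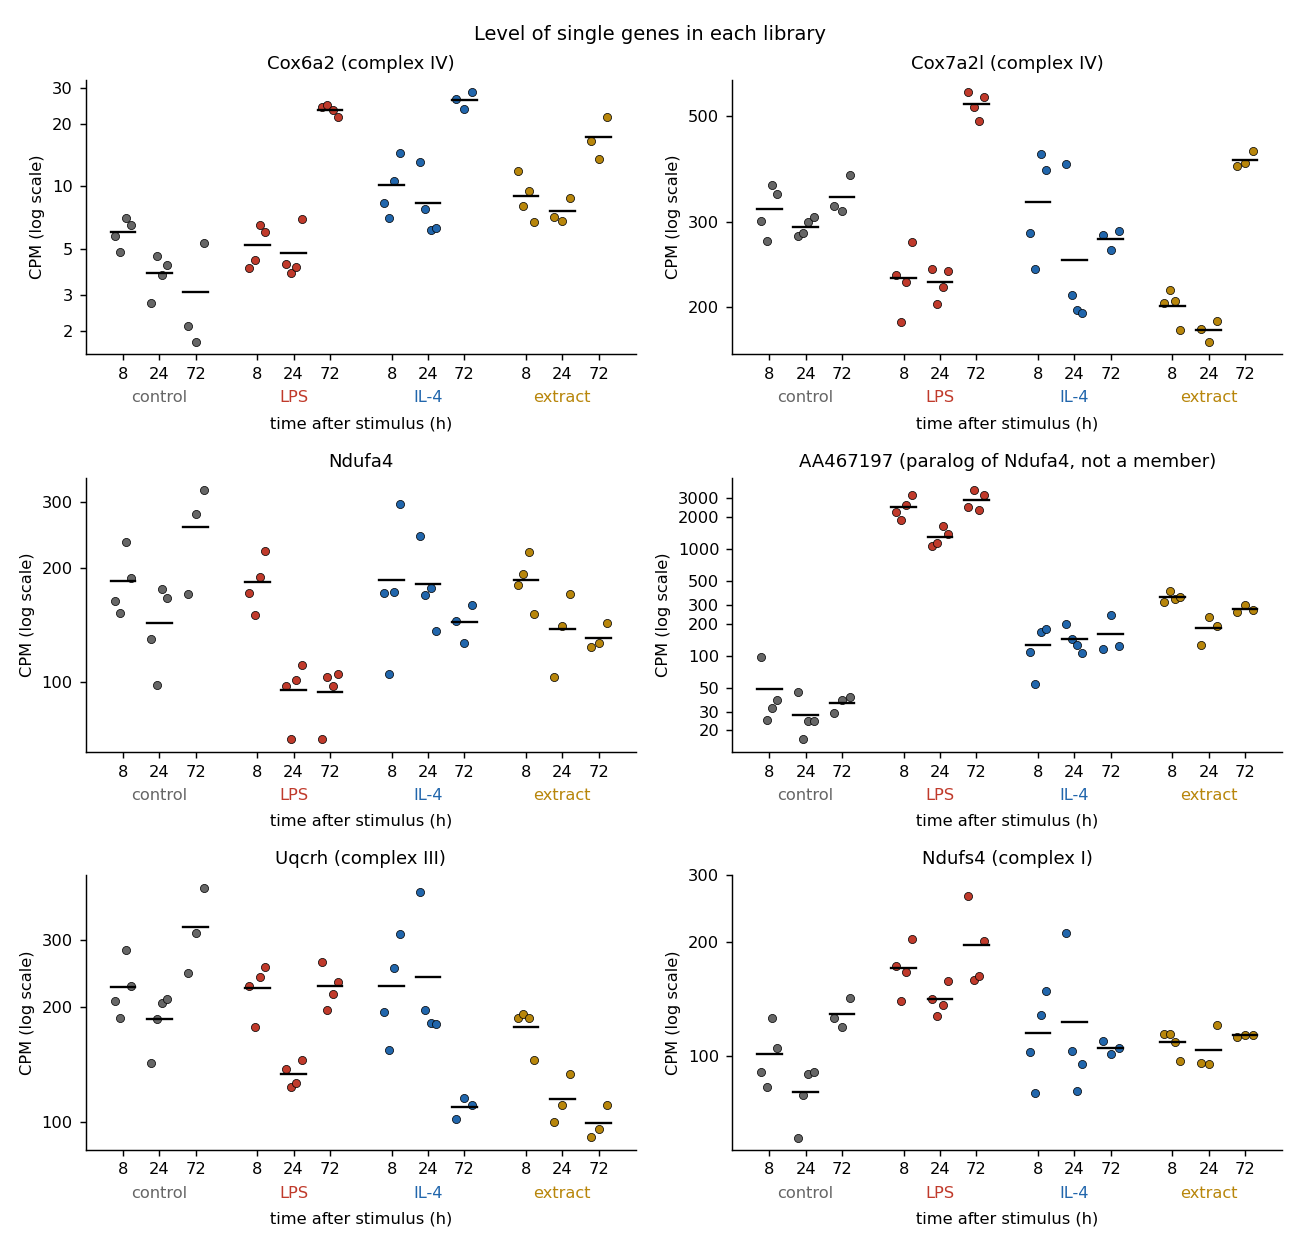
Level (CPM, log axis, 1 point per library, bar at the group mean) of Cox6a2, Cox7a2l, Ndufa4, AA467197, Uqcrh and Ndufs4 in control, LPS, IL-4 and extract cultures at 8, 24 and 72 h. Cox6a2 lies at 1.78 to 5.35 CPM in the 72 h controls and at 13.5 to 28.5 CPM in all stimulated 72 h libraries, and Ndufa4 is lowest with LPS at 72 h, where AA467197 lies at 2330.2 to 3590.3 CPM.

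Among the other complex IV subunits, Cox6b1, which joins the monomers of the dimer, was at 229, 329 and 429.7 CPM in 72 h controls, 152, 172 and 162 CPM with IL-4 (log2 change -1.02 ± 0.25 SE, adjusted p = 0.00193) and 117, 153 and 142 CPM with the extract (log2 change -1.26 ± 0.25 SE, adjusted p = 0.00015). Neither group overlapped the controls, while LPS did (adjusted p = 0.398). Cox7b fell with the extract (log2 change -0.95 ± 0.26 SE, adjusted p = 0.00553). Cox5a, a subunit of the matrix side, was at 36.6, 38.2, 38.7 and 28.4 CPM in 24 h controls, 62.9, 51.6, 48.5 and 50.2 CPM with LPS (log2 change 0.58 ± 0.18 SE, adjusted p = 0.00936), 73.0, 53.1, 47.5 and 48.0 CPM with IL-4 (log2 change 0.60 ± 0.19 SE, adjusted p = 0.0331) and 63.3, 55.7 and 49.7 CPM with the extract (log2 change 0.67 ± 0.19 SE, adjusted p = 0.00848). Every stimulated library lay above every control. Cox8a was at 205, 282, 257 and 309 CPM in 24 h controls and 904, 433, 325 and 328 CPM with IL-4 (log2 change 0.90 ± 0.22 SE, adjusted p = 0.00467), where all 4 values lay above the controls and replicate 1 far above the rest.

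In complex V the catalytic subunits rose with IL-4, and the genes called lower with the extract at 72 h were small membrane subunits. Atp5b, the catalytic beta subunit, was at 425, 507, 489 and 501 CPM in 24 h controls and at 714, 668, 639 and 613 CPM with LPS (log2 change 0.45 ± 0.13 SE, adjusted p = 0.00347), 1210.2, 699, 729.7 and 748 CPM with IL-4 (log2 change 0.81 ± 0.13 SE, adjusted p = 1.01e-05) and 603, 659 and 674 CPM with the extract (log2 change 0.43 ± 0.14 SE, adjusted p = 0.0183). All stimulated cultures lay above the controls. At 8 h it was higher with LPS (log2 change 0.39 ± 0.13 SE, adjusted p = 0.00934). At 72 h it was at 428, 472 and 580.1 CPM in controls and 699, 693 and 706 CPM with IL-4 (log2 change 0.50 ± 0.15 SE, adjusted p = 0.0103), and with LPS it overlapped the controls (adjusted p = 0.942). Atp5a1, the alpha subunit, was at 274, 363 and 375 CPM in 72 h controls and 554, 511 and 539 CPM with IL-4, without overlap (log2 change 0.67 ± 0.16 SE, adjusted p = 0.00146). Atp5c1, the gamma subunit that forms the rotating stalk, rose with LPS at 72 h (log2 change 0.50 ± 0.16 SE, adjusted p = 0.0134) and with IL-4 at 24 h (log2 change 0.61 ± 0.15 SE, adjusted p = 0.00341). Atp5f1, of the peripheral stalk, rose with LPS at 24 h (log2 change 0.47 ± 0.16 SE, adjusted p = 0.0131).

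With the extract at 72 h, 5 complex V genes were called lower, all of the membrane part: Atp5g1, Atp5g3, Atp5j2, Atp5k and Atp5l. Outside it, Atp5d (log2 change -0.70, adjusted p = 0.0753) and Atp5e (-0.63, 0.0770) were also lower without passing the test. With the length trend removed Atp5g3, Atp5k and Atp5l lost their call (adjusted p = 0.0503 to 0.290). Among the 5, only Atp5g1 kept its call without extract 72 h replicate 2 or control 72 h replicate 4. Atp5g1, 1 of 3 genes for the c-ring subunit, was at 77.4, 84.6 and 96.9 CPM in controls and 44.3, 48.4 and 50.3 CPM with the extract (log2 change -0.85 ± 0.24 SE, adjusted p = 0.00575), and Atp5j2 was lower too (log2 change -0.88 ± 0.25 SE, adjusted p = 0.00853). Atp5k was at 279.9, 259 and 405 CPM and 102, 155 and 156 CPM (log2 change -1.19 ± 0.40 SE, adjusted p = 0.0247). Per kilobase the 3 c-ring genes ranked Atp5g3, Atp5g2 and Atp5g1 in 72 h controls, at 290.4, 139 and 32.3 CPM. The 2 genes with ATP synthase names outside the core enzyme fell with LPS at 8 h. Atp5s was at 6.97, 6.14, 7.03 and 7.35 CPM in controls and 3.16, 2.34, 4.88 and 3.68 CPM with LPS (log2 change -0.93 ± 0.23 SE, adjusted p = 0.000922), and Atp5sl at 11.5, 9.24, 7.51 and 10.1 CPM and 4.89, 5.27, 5.69 and 5.98 CPM (log2 change -0.81 ± 0.22 SE, adjusted p = 0.00245). Neither pair of groups overlapped. No complex V gene was called with IL-4 at 8 h (Atp5s, log2 change -0.56 ± 0.25 SE, adjusted p = 0.178) or the extract at 8 h (Atp5sl, log2 change -0.49 ± 0.21 SE, adjusted p = 0.0782). With the replicate number as a block Atp5sl was called there (log2 change -0.50, adjusted p = 0.0314).

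Compared with IL-4 directly, more subunits were lower than higher with LPS at 8 and 24 h, and more were higher than lower at 72 h. At 8 h 2 of 74 subunits were higher and 16 lower with LPS, when 42.5% of all genes were called (20.8% higher and 21.7% lower). At 24 h the counts were 0 and 21, when 36% were called (18% and 18%), and at 72 h 22 and 6, when 38.8% were (18.6% and 20.2%). The median log2 ratio of LPS to IL-4 was -0.31, -0.44 and 0.37, against 0.01, -0.04 and 0.05 over all genes. Without libraries under 2000000 counts, of which this comparison holds IL-4 24 h replicate 1 at 24 h, the 24 h median was -0.03, with 2 higher and 11 lower. With the trend on transcript length removed the 72 h balance turned, to 9 higher and 14 lower with a median of -0.05, and with RLE scaling it was 26 and 3. The 24 h count was 10 without IL-4 24 h replicate 1 and 32 without replicate 4. The 8 h count was 9 or 10 without LPS 8 h replicate 2, IL-4 8 h replicate 3 or IL-4 8 h replicate 4, and the 72 h count was 18 without IL-4 72 h replicate 4. Of complex I, 11 genes were lower with LPS at 8 h, led by Ndufb10 (log2 change -0.93 ± 0.22 SE, adjusted p = 0.000532) and the core subunit Ndufs7 (log2 change -1.12 ± 0.31 SE, adjusted p = 0.00323). In complex III Uqcrc2 was higher (log2 change 0.31 ± 0.13 SE, adjusted p = 0.0428) and Uqcr11 lower (log2 change -0.73 ± 0.29 SE, adjusted p = 0.0387). The Uqcrc2 call was lost without IL-4 8 h replicate 1, 3 or 4 or any 1 LPS 8 h replicate (adjusted p = 0.0649 to 0.152). That of Uqcr11 was lost without IL-4 8 h replicate 3 or 4 or LPS 8 h replicate 1 or 2 (adjusted p = 0.0509 to 0.146). Cox7a2l (log2 change -0.53 ± 0.16 SE, adjusted p = 0.00633), Atp5sl (log2 change -0.82 ± 0.24 SE, adjusted p = 0.00526) and Atp5g1 (log2 change -0.52 ± 0.20 SE, adjusted p = 0.0348) were lower.

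At 24 h the lower genes were led by Ndufs8 (log2 change -1.61 ± 0.26 SE, adjusted p = 3.3e-06), Ndufb10 (log2 change -0.95 ± 0.22 SE, adjusted p = 0.000503), Uqcrh (log2 change -0.83 ± 0.20 SE, adjusted p = 0.000937), Uqcr11 (log2 change -1.16 ± 0.29 SE, adjusted p = 0.00135), Cox8a (log2 change -0.83 ± 0.22 SE, adjusted p = 0.00238), Atp5k (log2 change -1.22 ± 0.35 SE, adjusted p = 0.00518) and Atp5o (log2 change -0.62 ± 0.19 SE, adjusted p = 0.00795), beside Cox7a1. Without IL-4 24 h replicate 1 the call was lost for Uqcr11 (log2 change -0.47, adjusted p = 0.0847), Cox8a (-0.35, 0.138), Atp5k (-0.38, 0.308) and Atp5o (-0.26, 0.224), and Ndufs8, Ndufb10, Uqcrh and Cox7a1 kept theirs. At 72 h the direction differed between genes. Ndufb3 (log2 change 1.09 ± 0.24 SE, adjusted p = 0.00039), Ndufc2 (log2 change 0.96 ± 0.22 SE, adjusted p = 0.000421), Uqcrh (log2 change 1.06 ± 0.22 SE, adjusted p = 0.000158), Cox7a2 (log2 change 1.40 ± 0.29 SE, adjusted p = 0.000166), Cox7a2l (log2 change 0.93 ± 0.18 SE, adjusted p = 3.75e-05), Atp5g2 (log2 change 0.82 ± 0.27 SE, adjusted p = 0.0139) and Atp5l (log2 change 0.61 ± 0.24 SE, adjusted p = 0.0379) were higher with LPS. Lower with LPS were Ndufs1 (log2 change -0.71 ± 0.14 SE, adjusted p = 5.11e-05), Ndufv1 (log2 change -0.43 ± 0.16 SE, adjusted p = 0.0256), Atp5a1 (log2 change -0.67 ± 0.14 SE, adjusted p = 0.000228) and Atp5b (log2 change -0.52 ± 0.14 SE, adjusted p = 0.00194). The median transcript length was 610 nucleotides for the 22 that were higher and 1722 for the 6 that were lower. With the length trend removed the 72 h log2 change was 0.25 for Atp5g2 (adjusted p = 0.229) and 0.02 for Atp5l (0.925). The Atp5l call was also lost with any single library of the 72 h groups left out (adjusted p = 0.0514 to 0.143). That of Ndufv1 was lost with RLE scaling (adjusted p = 0.0874).

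Few subunits differed between the extract and LPS at 8 and 24 h, and 30 did at 72 h. At 8 h 2 subunits were higher and 1 lower with the extract, when 29.1% of all genes were called (14% higher and 15.1% lower). At 24 h the counts were 1 and 0, when 16.7% were called (8.03% and 8.66%), and at 72 h 1 and 29, when 22.2% were (10.9% and 11.3%). Atp5s was higher with the extract at 8 h (log2 change 0.85 ± 0.24 SE, adjusted p = 0.00462) beside Cox6a2, and at 24 h Cox6a2 alone was called. For the other complexes the smallest p at 24 h belonged to Ndufa4 (log2 change 0.54 ± 0.24 SE, adjusted p = 0.126), Uqcrc2 (log2 change -0.22 ± 0.13 SE, adjusted p = 0.299) and Atp5f1 (log2 change -0.26 ± 0.17 SE, adjusted p = 0.336), and in complex III at 8 h to Uqcrfs1 (log2 change -0.28 ± 0.13 SE, adjusted p = 0.0961). At 72 h the lower genes were led by Ndufb3 (log2 change -1.15 ± 0.25 SE, adjusted p = 0.000534), Ndufa3 (log2 change -1.24 ± 0.27 SE, adjusted p = 0.000812), Uqcrh (log2 change -1.19 ± 0.22 SE, adjusted p = 8.09e-05), Uqcr10 (log2 change -0.79 ± 0.25 SE, adjusted p = 0.0207), Cox7a2 (log2 change -1.46 ± 0.29 SE, adjusted p = 0.000247), Cox6b1 (log2 change -0.98 ± 0.23 SE, adjusted p = 0.00179), Atp5l (log2 change -0.90 ± 0.24 SE, adjusted p = 0.00557) and Atp5g2 (log2 change -0.92 ± 0.27 SE, adjusted p = 0.012). Ndufs1 was the gene that was higher (log2 change 0.39 ± 0.14 SE, adjusted p = 0.0411). The 24 h call was lost without any 1 of 6 libraries. The 72 h count of 30 became 12 to 18 without extract replicate 2, 3 or 4 or LPS replicate 1 or 4.

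Untreated cells changed 2 subunits between 8 and 72 h, Uqcrc1 and Cox6a2, both lower at 72 h (13.4% of all genes were called, 6.35% higher and 7.07% lower). Complex I and V had no call, and the smallest p belonged to Ndufb2 (log2 change 0.94 ± 0.37 SE, adjusted p = 0.08) and Atp5a1 (log2 change -0.35 ± 0.15 SE, adjusted p = 0.11). Without control 8 h replicate 3 the count was 9, and without control 72 h replicate 1 or 3 it was 1. The stimulus effect itself differed between 72 and 8 h for 8 subunits with LPS (7 higher and 1 lower, with 29.8% of all genes called, 15.7% higher and 14.1% lower). It did for 9 with IL-4 (1 and 8, with 15.9% called, 9.4% and 6.51%) and for 9 with the extract (2 and 7, with 21.7% called, 13% and 8.66%). Cox6a2 was called in all 3, which share the control libraries. For IL-4 the count was 14 to 25 without control 8 h replicate 3, IL-4 8 h replicate 1 or 2 or control 72 h replicate 1, and 4 or 5 without control 72 h replicate 4 or IL-4 8 h replicate 4. For the extract it was 5 without control 72 h replicate 4 or extract 72 h replicate 2. Uqcrh, Uqcr11, Cox6b1 and Cox7a2 had a lower effect at 72 h with both IL-4 and the extract.

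Transcript length ran alongside the 72 h changes. The 74 subunit transcripts are short, at 322 to 2676 nucleotides with a median of 737. The 8 subunits that fell with IL-4 at 72 h had a median length of 467 nucleotides and the 6 that rose 1618.5, and the 19 that fell with the extract had 544. Over all 195 protein-coding genes under 600 nucleotides the median log2 change was -0.39 with IL-4, -0.44 with the extract and 0.19 with LPS, and over the 8496 of 2000 or more it was 0.12, 0.10 and -0.03. With each library's trend on length removed, the subunit median became 0.00 with IL-4 and -0.19 with the extract at 72 h, and it became -0.05 for LPS against IL-4 and -0.14 for the extract against LPS. The balance of calls at 72 h became 11 that rose and 6 that fell with IL-4, 6 and 13 with the extract and 7 and 10 with LPS, and 2 higher and 7 lower for the extract against LPS. At 24 h it became 14 and 8 with LPS and 8 and 3 with the extract, and for the change of the effect from 8 to 72 h it became 8 and 4 with LPS, 6 and 7 with IL-4 and 4 and 8 with the extract. Under that correction 12 of the 14 IL-4 calls and 14 of the 20 extract calls at 72 h were kept, among them Cox6a2, Uqcrh, Uqcr11, Cox6b1, Ndufa3, and, with IL-4, Atp5a1 and Atp5b. The 85 ribosomal protein genes, also short, summed to 42718 to 63910 CPM in 72 h controls, 38875 to 42591 with IL-4, 39758 to 44716 with the extract and 55528 to 79961 with LPS.

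**Figure D4:**
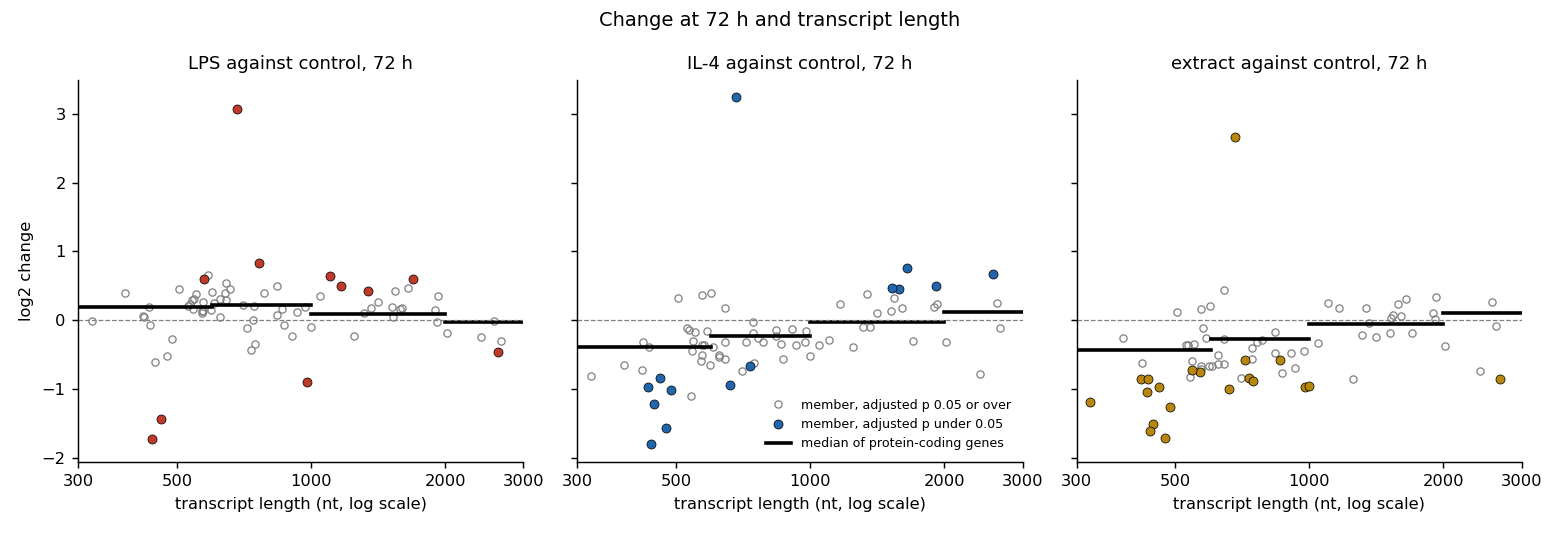
Log2 change of each tested subunit at 72 h against transcript length (nucleotides, log axis) for LPS, IL-4 and extract, with black bars at the median of all protein-coding genes of each length range. With IL-4 and the extract the short genes lie below 0, as do the medians of all genes under 600 nucleotides (-0.39 and -0.44), and Cox6a2 lies far above.

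Most tested subunits coded by mitochondrial DNA fell with LPS at 24 and 72 h. Of 13 such genes, 11 had enough counts, and with LPS 0 were called at 8 h, 9 fell at 24 h and 9 fell at 72 h (median log2 -0.94 and -1.66). Over all genes tested 45.3% were called with LPS at 8 h, and 19.2% and 15.3% were called lower at 24 and 72 h. Cytochrome b, mt-Cytb, was at 1435, 2008, 2142 and 2189.6 CPM in 24 h controls and 708, 944, 888 and 875 CPM with LPS (log2 change -1.19 ± 0.17 SE, adjusted p = 1.13e-07). At 72 h it was at 3439, 2601 and 2325 CPM and 686, 553, 779 and 904 CPM (log2 change -1.93 ± 0.18 SE, adjusted p = 6.07e-12), without overlap. With the extract 0 were called at 24 h and 5 fell at 72 h (median -1.01), and with IL-4 0 were called at 24 h and 1 fell at 72 h (median -0.38). Over all genes tested the extract had 22% called at 24 h and 12.1% called lower at 72 h, and IL-4 had 9.28% and 10.4%. The ratio of the nuclear-coded to the mitochondrially coded sum was 0.63 ± 0.26 (SD, n = 3) in 72 h controls and 1.73 ± 0.51 (SD, n = 4) with LPS, and 0.539 ± 0.017 (SD, n = 4) in 24 h controls and 0.98 ± 0.16 (SD, n = 4) with LPS. The groups did not overlap at either time. How fully poly(A) selection recovered these messages was not tested.

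**Figure D5:**
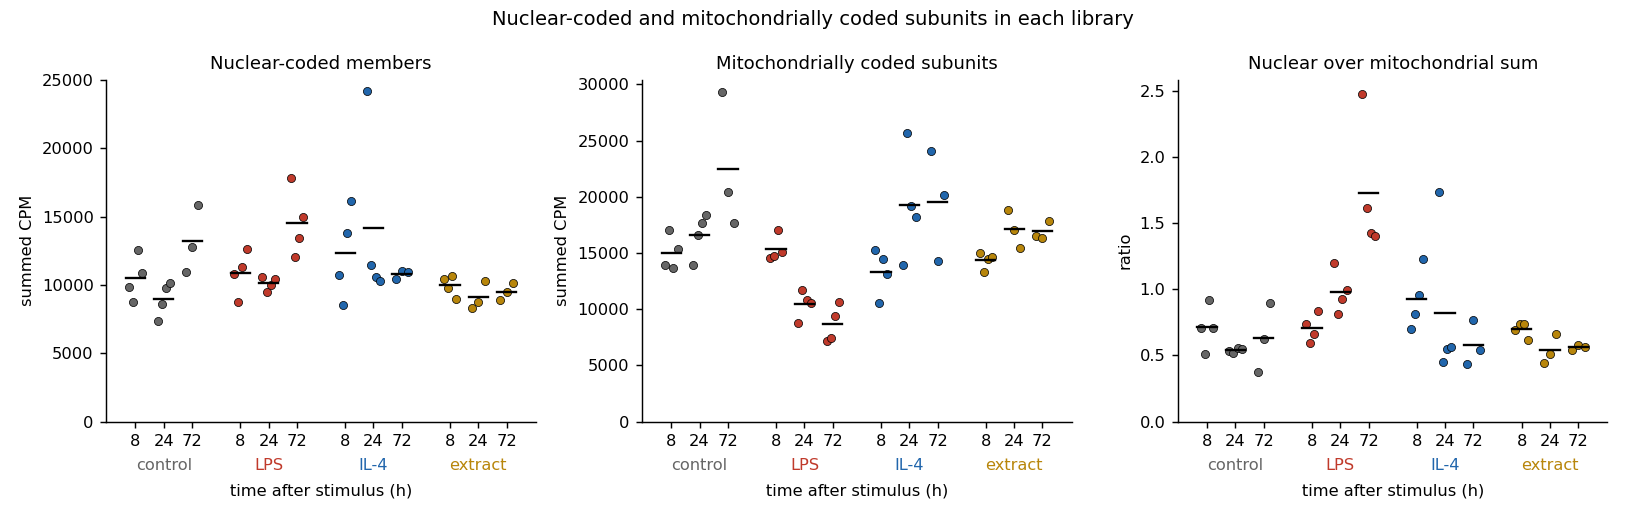
Summed level of the nuclear-coded subunits, of the mitochondrially coded subunits (both in CPM) and their ratio, 1 point per library with a bar at the group mean, by stimulus and time. With LPS the mitochondrially coded sum is lowest at 72 h and the ratio lies at 1.40 to 2.48, against 0.374 to 0.895 in the 72 h controls.

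Among genes that serve the chain without being subunits, the electron carrier Cycs rose with LPS at every time. Cytochrome c, Cycs, which carries electrons from complex III to complex IV, was at 64.4, 65.9, 77.2 and 73.3 CPM in 8 h controls and 281, 252, 260.2 and 295 CPM with LPS, a rise by 3.88-fold (log2 change 1.95 ± 0.13 SE, adjusted p = 9.2e-17). It stayed higher with LPS at 24 h (log2 change 1.44 ± 0.13 SE, adjusted p = 9.58e-13) and 72 h (log2 change 1.06 ± 0.14 SE, adjusted p = 7.2e-08), and rose with IL-4 at 24 h (log2 change 0.81 ± 0.13 SE, adjusted p = 1.07e-05) and the extract at 8 h (log2 change 0.78 ± 0.13 SE, adjusted p = 2.9e-06). The lists that follow are read against the 45.3% of all genes called with LPS at 8 h, 9.28% with IL-4 at 24 h and 26.2% with the extract at 72 h. Of 15 electron carrier genes tested, 5 rose and 4 fell with LPS at 8 h, 5 rose and 0 fell with IL-4 at 24 h, and 2 rose and 2 fell with the extract at 72 h. Among 22 assembly factors of complex IV, 6 rose and 4 fell with LPS at 8 h, a share near that of all genes, led by Coa5 (log2 change 1.89 ± 0.15 SE, adjusted p = 2.31e-14) and the copper chaperone Sco1 (log2 change 2.09 ± 0.17 SE, adjusted p = 4.11e-14). Among 15 assembly factors of complex I, 3 rose and 6 fell, and Ndufaf7, a methyltransferase, had the smallest p of those that fell (log2 change -1.76 ± 0.17 SE, adjusted p = 1.7e-11). At 72 h with LPS, 16.1% of all genes were called higher and 15.3% lower. Of the complex IV factors 7 rose and 1 fell then, including Higd1a (log2 change 1.46 ± 0.22 SE, adjusted p = 1.08e-06). With the extract at 72 h 3 rose and 5 fell.

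Of the 4 subunits of complex II, 0 rose and 1 fell with LPS at 8 h, and 2 rose with IL-4 at 24 h. Of 6 complex III assembly factors, 0 rose and 2 fell with LPS at 8 h, and of 5 for complex V, 0 rose and 1 fell. Of 14 tricarboxylic acid cycle genes, 2 rose and 4 fell with LPS at 8 h and 4 rose and 1 fell with IL-4 at 24 h. Of 9 antioxidant and uncoupling genes, 2 rose and 5 fell with LPS at 8 h. Of 16 regulators of mitochondrial gene expression, 6 rose and 4 fell with LPS at 8 h, 3 rose with IL-4 at 8 h and 7 at 72 h, and 5 rose and 2 fell with the extract at 72 h. Over all genes 4.26% and 13.1% were called higher with IL-4 at 8 and 72 h. Ppargc1b, a coactivator of mitochondrial biogenesis, was at 2.77, 2.90, 4.00 and 4.69 CPM in 8 h controls and 11.7, 11.6, 28.6 and 20.2 CPM with IL-4, without overlap (log2 change 2.31 ± 0.31 SE, adjusted p = 3.92e-07). It was higher with IL-4 at 24 h (log2 change 1.87 ± 0.32 SE, adjusted p = 4.04e-05) and not at 72 h (log2 change -0.62 ± 0.38 SE, adjusted p = 0.236). Hif1a, the hypoxia factor, rose with LPS at 8 h (log2 change 2.08 ± 0.18 SE, adjusted p = 2.32e-13). Ndufab1, a complex I subunit outside the name rule, rose with LPS (log2 change 0.66) and IL-4 (log2 change 0.74) at 24 h.

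Counting touches some of these values. In 27 of the 74 tested genes an exon overlaps another gene in GENCODE M21, 5 of them on the same strand, and 5.39% of reads that fell on genes were set aside as ambiguous. Ndufs1 shares 9 bases with Eef1b2, Ndufa3 4 with Tfpt, Ndufs3 88 with Kbtbd4, Uqcrc2 504 with Pdzd9 and Atp5a1 129 with Haus1, all on opposite strands. Pdzd9 was at most 4.35 CPM and Kbtbd4 at most 9.08 CPM in any library, far below Uqcrc2 and Ndufs3. Tfpt was at most 18.5 CPM and Haus1 at most 11.7 CPM. Eef1b2 was at 217 to 683 CPM, above the Ndufs1 levels given for 72 h. With LPS it was lower at 24 h (log2 change -0.48 ± 0.18 SE, adjusted p = 0.0356) and not called at 72 h (log2 change 0.36 ± 0.20 SE, adjusted p = 0.174). The part of Eef1b2 reads in the Ndufs1 values was not tested. The subunits also have many processed pseudogenes, and reads that matched more than 1 place were set aside (41.7 to 92.8 per 100 gene counts). How many of them came from subunit genes was not counted. A second entry named Uqcrc1 held 0 counts.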

How the data were processed

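The authors deposited 1 table of read counts per gene for 44 libraries, made from 50 bp single-end reads of polyadenylated RNA. The submitters' processing notes name mm10, cutadapt, Bowtie2, TopHat2 2.1.1, HTSeq, DESeq and edgeR, and per the labels reads were trimmed and those under 18 nucleotides dropped. Neither the annotation release nor the counting's strand setting was given in the sources used here. Library columns were matched to groups by their labels. Summary entries were left out of library sizes, and ambiguous reads came to 5.39% of reads on genes.

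Counts were fitted with edgeR 4.0.16 (R 4.3.3, limma 3.58.1): 1 coefficient for each of 12 groups, TMM scaling, filterByExpr with a minimum count of 10 (14537 of 46078 genes kept), robust quasi-likelihood test, and Benjamini-Hochberg adjustment over all genes tested, called under 0.05. The fit had 32 residual degrees of freedom and a common biological coefficient of variation of 0.219. Levels are TMM-scaled CPM, and per-length levels divide by GENCODE M21 transcript length. The procedure was tested on simulated data. Libraries held 908458 to 26616968 gene counts, so genes of a few CPM rest on few reads in the shallow libraries. Libraries were checked for duplicates, and 0 pairs were found.

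The members and lists were chosen with earlier results of these data known. Named genes are a preset set of isoforms and core subunits and, per comparison and complex, the 2 called genes with the smallest p in each direction (or the smallest p where none was called). The result of 1 gene that this rule names is not reported here. Other genes, AA467197 and overlapping neighbours among them, were added after values were seen. Same-numbered libraries deviated together (every pair's correlation over 0.1, with at least 3 pairs) in 3 of 16 comparisons: LPS at 8 and 24 h and extract at 8 h against control. The labels do not say what a number shares. Alternatives were RLE scaling, DESeq2 1.42.0, no count filter, only the groups compared, the replicate number as a block, each library left out, no libraries under 2000000 counts, and, chosen after seeing the data, no libraries rich in ribosomal RNA and removal of the length trend.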

Additional observations from a re-analysis of the deposited data

Results flagged for a closer look

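Several libraries stood apart from the rest of their group, by a gap to the nearest library above the 95% limit of Dixon's ratio, which chance passes in about 1 in 20 groups. Groups of 3 libraries (control and IL-4 at 72 h, the extract at 24 and 72 h) were not tested in this way. Of 32 sums by complex in the other groups, 4 stood apart, all in IL-4 24 h replicate 1: 8251 CPM for complex I, 2944 for complex III, 6584 for complex IV and 6403 for complex V. Of 200 sets of values of single genes in those groups, 27 held a library that stood apart. IL-4 24 h replicate 1 gave Cox7a2 at 965 CPM, Cox7a2l at 395, Cox6b1 at 553, Ndufs4 at 211, Ndufs3 at 81.7, Ndufs8 at 225, Ndufb10 at 179, Ndufv1 at 111, Uqcrh at 402, Uqcr11 at 425, Cyc1 at 218, Atp5b at 1210.2 and Atp5sl at 18.5, each above the other 3 libraries, and Ndufs1 at 49.0, below them.

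The other libraries that stood apart in 1 gene were spread over groups. High ones were Cox6a2 in LPS 24 h replicate 4 (6.92 CPM against 3.80 to 4.20), Cox7a1 in control 8 h replicate 3 (4.16 against 1.24 to 1.60), Uqcrc2 in control 8 h replicate 3 (143), Uqcrfs1 in IL-4 24 h replicate 2 (163), Atp5a1 in LPS 24 h replicate 1 (445.5) and Atp5sl in LPS 24 h replicate 1 (14.3). Low ones were Cox7a2 in control 24 h replicate 1 (143 CPM against 259 to 267) and in extract 8 h replicate 4 (317), Cox6b1 in LPS 72 h replicate 2 (193), Ndufv1 in LPS 24 h replicate 3 (47.6), Uqcrh in extract 8 h replicate 4 (145), Uqcr11 in LPS 8 h replicate 2 (77.8) and Atp5a1 in LPS 72 h replicate 1 (201.5 against 365 to 395).

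The effect of a stimulus differed between 72 and 8 h for 8 genes with LPS, 9 with IL-4 and 9 with the extract, by the interaction term of the edgeR fit (adjusted p in parentheses). For LPS the log2 effect at 72 h minus that at 8 h was Ndufa4 -1.43 ± 0.33 SE (0.000791), Ndufb3 1.11 ± 0.33 SE (0.00946), Cox6a2 3.23 ± 0.40 SE (2.43e-08), Cox7a2l 1.12 ± 0.24 SE (0.000268), Atp5s 1.36 ± 0.35 SE (0.0025), Atp5sl 1.17 ± 0.34 SE (0.00731), Atp5c1 0.71 ± 0.21 SE (0.00907) and Atp5g2 0.99 ± 0.37 SE (0.0372). For IL-4 it was Ndufa3 -1.45 ± 0.38 SE (0.00711), Ndufs3 -0.73 ± 0.24 SE (0.0363), Ndufs6 -0.95 ± 0.32 SE (0.0366), Ndufb10 -0.96 ± 0.33 SE (0.0413), Uqcrh -1.58 ± 0.31 SE (0.000371), Uqcr11 -1.56 ± 0.44 SE (0.0125), Cox6a2 2.47 ± 0.41 SE (3.69e-05), Cox6b1 -1.06 ± 0.32 SE (0.0203) and Cox7a2 -1.30 ± 0.40 SE (0.0221). For the extract it was Ndufa4 -0.99 ± 0.34 SE (0.0335), Uqcrh -1.36 ± 0.31 SE (0.000987), Uqcr11 -1.33 ± 0.44 SE (0.0254), Cox6a2 2.07 ± 0.40 SE (0.000161), Cox7a2l 0.92 ± 0.24 SE (0.00515), Cox6b1 -1.20 ± 0.32 SE (0.00565), Cox7a2 -1.26 ± 0.40 SE (0.0203), Cox7b -0.92 ± 0.34 SE (0.049) and Atp5g1 -1.05 ± 0.31 SE (0.0105). The 3 contrasts share the control libraries.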

How the results depend on the processing

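Counts of called subunits (rose plus fell) and medians were recomputed under each alternative, and among called subunits 1 value changed sign: Atp5e in the extract against LPS at 72 h, -0.68 in the reported fit and 0.0251 with the length trend removed. Cox6a2 at 72 h with all 3 stimuli, Ndufa4 with LPS at 72 h, Cox7a2l with LPS at 72 h and the extract at 8 and 24 h, Ndufs4 with LPS at 8 and 24 h, Atp5b with IL-4 at 24 h and Uqcrh, Uqcr11, Cox6b1 and Ndufa3 with IL-4 and the extract at 72 h were called under every alternative run. Of the 23 calls with IL-4 at 24 h, 1 was. The 5 libraries under 2000000 counts, from 908458 up, lie in the IL-4 8 and 24 h, control 72 h and LPS 72 h groups, where low genes rest on few reads.

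With DESeq2 the count was 42 for IL-4 at 24 h, 4 for the extract at 8 h, 2 for extract against LPS at 24 h and 23 for the IL-4 effect at 72 h minus 8 h. With RLE scaling the IL-4 effect count was 20, and the IL-4 72 h mean sums were 2132 CPM for complex IV and 3462 for complex V, against 2218 and 3602. With no count filter it was 40 for IL-4 at 24 h, 1 for the extract at 8 h, 35 for LPS against IL-4 at 24 h, 2 for extract against LPS at 24 h, 13 for the control over time and 16 for the IL-4 effect. With only the groups compared in the fit it was 13, 26 and 5 for LPS at 8, 24 and 72 h, 0 and 1 for IL-4 at 8 and 24 h, 4, 12 and 32 for the extract, 10 and 9 for LPS against IL-4 at 8 and 24 h, 5 and 11 for extract against LPS, 5 for the control and 19 for the extract effect. With the replicate number as a block it was 4 for the extract at 8 h, and the other 18 counts stayed within 1.5 times the reported ones. Where same-numbered libraries deviated together, the block added calls for Cox5a with LPS at 8 h, Cox7a2l and Uqcrh with LPS at 24 h and Atp5sl and Cox5a with the extract at 8 h, and changed no other call. Same-numbered pairs correlated with a median of 0.127 and other pairs with -0.037, and the labels do not state a shared source.

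Without libraries under 2000000 counts it was 17, 30 and 20 for LPS, 9 and 15 for IL-4 at 8 and 24 h, 5 and 12 for the extract at 8 and 24 h, 36 and 13 for LPS against IL-4 at 8 and 24 h, 5 and 7 for extract against LPS, 8 for the control, and 13, 23 and 17 for the LPS, IL-4 and extract effects. The medians became 0.236 for IL-4 at 24 h and -0.0329 for LPS against IL-4 at 24 h. Without the 7 libraries rich in ribosomal RNA it was 3 and 7 for LPS at 8 and 72 h, 0 and 15 for IL-4 at 8 and 24 h, 8 for the extract at 72 h, 11 and 13 for LPS against IL-4 at 8 and 24 h, 0 and 11 for extract against LPS at 24 and 72 h, and 4 for the control. With the length trend removed it was 17, 22 and 17 for LPS, 11 for the extract at 24 h, 2 and 9 for extract against LPS at 24 and 72 h and 6 for the control. The medians became 0.00153 for IL-4 and -0.186 for the extract at 72 h, -0.0494 for LPS against IL-4 and -0.140 for extract against LPS at 72 h, and -0.205 for the IL-4 effect. The cause of these shifts was not tested.

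With each library left out in turn, the counts at 8, 24 and 72 h ranged over 6 to 8, 8 to 12 and 6 to 11 for LPS, 0 to 5, 7 to 37 and 10 to 14 for IL-4, and 1 to 3, 3 to 6 and 8 to 23 for the extract. They ranged over 9 to 25, 10 to 32 and 18 to 27 for LPS against IL-4 and 2 to 4, 0 to 1 and 12 to 31 for extract against LPS. They were 1 to 9 for the control, and 7 to 8, 4 to 25 and 5 to 12 for the LPS, IL-4 and extract effects. The report names the libraries behind the wide ranges.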
